A study of Mus musculus with 24 samples.

Results

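The nuclear genes for subunits of the 5 oxidative phosphorylation complexes were followed across hippocampal RNA of APP/PS1 mice given urolithin A and of their controls. Members were the array probes whose RefSeq identifier maps to a symbol of the Nduf subunit series (complex I), Sdha to Sdhd (complex II), Uqcr (complex III), Cox4 to Cox8 (complex IV) or Atp5 (complex V). The rule found 83 of the 22911 genes with a symbol on the array, namely 37 of complex I, 4 of complex II, 8 of complex III, 17 of complex IV and 17 of complex V. Complexes follow the symbol alone, so Ndufa4 and its paralog Ndufa4l2 are counted under complex I whatever complex their proteins belong to. Each gene was read by its brightest probe, and 18 genes had more than 1. The filter on dim probes kept 82 members. The exception, Cox8c, a cytochrome oxidase subunit best known from testis, was well above background on 0 arrays. Subunits encoded by mitochondrial DNA, and nuclear ones without a matched probe such as Cox5b, were not analysed here. Nuclear genes whose symbols fall outside the rule, such as Ndufab1 and Cyc1, are not members.

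The 24 hippocampal samples came from male mice in 6 groups, and the strain given for every sample, transgenic or not, is B6.Cg-Tg(APPswe,PSEN1dE9)85Dbo/J. The 4 WT_CTR and 5 WT_WASHOUT samples lacked both transgenes. Mutant APP and PSEN transgenes were carried by the 3 samples of APP-PS1_CTR and the 4 of APP-PS1_UA, and by the 3 of APP-PS1_WASHOUT and the 5 of APP-PS1_UA-WASHOUT. Both transgenes of this strain are known to be driven by the mouse prion protein promoter. Gavage with water or urolithin A ran from month 2 to month 7, and the washout groups then lived 1 month without it. The sources give the dose as 200 mg/kg/day in one place and 20 mg/kg/day in another, and the ages as 8 and 9 months in the sample characteristics but as 7 months, plus the washout month, in the design text. Nothing in the labels says outright that each array is a separate animal, so p-values measure the spread between these samples. Values are log2 signals minus each array's 75th percentile, a difference is one group mean minus another, given with its standard error (SE) from limma, and a member was called where its p, adjusted by Benjamini and Hochberg over all 35259 features tested, was under 0.05.

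The arrays lay on 3 slides of 8. Slide 1 held WT_CTR, APP-PS1_CTR and 1 APP-PS1_UA array, WT_WASHOUT shared slide 2 with the remaining APP-PS1_UA arrays, and slide 3 held both transgenic washout groups. Between 63.7% and 76.9% of spots on an array were well above background. The lowest shares lay on 1 row of slide 3, which held APP-PS1_UA-WASHOUT replicates only.

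Electrons from NADH enter the inner mitochondrial membrane at complex I and those from succinate at complex II. They pass through complexes III and IV to oxygen, and the proton gradient so built drives ATP synthesis by complex V. Neurons depend heavily on this pathway, and several complex IV subunits exist as a common and a tissue-restricted isoform. Urolithin A, which gut bacteria form from plant ellagitannins, is best known for inducing mitophagy, in which damaged mitochondria are removed by autophagy.

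The transcription factors NRF1 and the ETS family member GABPA are known regulators of these genes, so the promoters were searched on both strands for the NRF1 core GCGCATGC, the shorter TGCGCA, which can overlap it, and the ETS motif CCGGAAG. RefSeq promoters of the build GRCm38.p6, from 250 bases before to 50 after the start, were matched by symbol for 67 of the 83 members. The NRF1 core occurred in 14.9% of the matched members and in 3.05% of all genes with a promoter in the table. TGCGCA occurred in 25.4% and 8.79%, and the ETS motif in 25.4% and 9.93%. These are counts of letters, with no binding measured. The 8 members with the core before the start are shown to let the shared element be seen in its context, with all matches to the 3 motifs in capitals.
Atp5g2: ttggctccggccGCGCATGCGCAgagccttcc
Atp5k: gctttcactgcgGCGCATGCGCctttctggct
Atp5l: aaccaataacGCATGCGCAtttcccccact
Cox6a1: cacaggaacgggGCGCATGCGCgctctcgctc
Ndufa11: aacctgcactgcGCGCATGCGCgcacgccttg
Ndufa6: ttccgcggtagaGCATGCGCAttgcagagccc
Ndufa8: gtcgctggagacGCATGCGC
Sdhb: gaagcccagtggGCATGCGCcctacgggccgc
The Cox6a1 stretch is chr5:115349101-115349132 on the minus strand and begins 174 bases before the start. That of Sdhb is chr4:140961205-140961236 on the plus strand and begins 66 bases before it, and that of Ndufa8 is chr2:36049339-36049358 on the minus strand and ends at the last base before the start. These 3 genes are taken up again below, since they are the 3 of the 8 that were called in the washout comparison.

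The levels of most members varied little between arrays of a group. The pooled SD within groups had a median of 0.10 over the 82 members and of 0.27 over all features, and it was under 0.2 for 75 members. It was above 0.5 for 2 members, and the highest, 1.88, was that of Cox8b. Low spread was not particular to the members. For APP-PS1_WASHOUT minus WT_WASHOUT the median SE was 0.089 for the members and 0.089 for 28 cytosolic ribosomal proteins. It was 0.096 for 13 citrate cycle enzymes and 0.194 for all features. After group means were removed, pairs of subunits within complex I had a median correlation of 0.27 across the 24 arrays, pairs within complex III 0.32, pairs within complex V 0.28 and pairs from different complexes 0.21. Pairs within complex IV had a median of 0.02. These correlations describe arrays that share a scaling step, and they carry no test.

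The comparison of APP-PS1_CTR with WT_CTR asks what the transgenes change at the end of treatment. In bulk tissue, fewer cells of a type and less RNA per cell cannot be told apart. Of the 82 members 0 were called, where 0.156% of all features were, and by the same limma fit 3 members had an unadjusted p under 0.05, or 3.66% against 6.49% of all features. All APP-PS1_CTR arrays were above all WT_CTR arrays in 3 members, Ndufv1, Sdhb and Atp5b (3.66% against 4.31%), and below them in 1, Ndufa12 (1.22% against 4.6%). The median difference was 0.04. The core subunits of complex I bind NADH and pass electrons along iron-sulfur clusters, and 0 of the 6 described here were called. Ndufs1 differed by 0.08, Ndufs3 by 0.04, Ndufs7 by -0.11, Ndufs8 by -0.05, Ndufv1 by 0.32 and Ndufv2 by 0.11. In complex III the largest difference was that of Uqcrc1, a large subunit on the matrix side, at -0.22. For 75 members the 95% interval lay within a 1.5-fold change in either direction.

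Atp5b, the catalytic beta subunit of ATP synthase, had the smallest adjusted p. It read 6.30, 6.27, 6.18 and 6.04 in WT_CTR and 7.06, 6.42 and 6.41 in APP-PS1_CTR. The groups did not overlap, and 1 APP-PS1_CTR array was far above the other 2. The difference was 0.43 (SE 0.12, limma adjusted p = 0.313), and the gene's other 2 probes gave -0.14 and 0.06. Ndufv1, which carries the NADH site, likewise had 0.32 by its brightest probe and -0.04 by the other.

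The comparison of APP-PS1_UA with APP-PS1_CTR asks what urolithin A from month 2 to month 7 changes, and it again called 0 members, where 0% of all features were called. By the same limma fit 6 members had an unadjusted p under 0.05, or 7.32%, against 7.34% of all features. The median difference was 0.05. In 13 members, or 15.9%, every treated array was above every APP-PS1_CTR array, against 5.74% of all features, and in 0 members the reverse held, against 5.15%. All APP-PS1_CTR arrays lay on slide 1 and 3 of the 4 APP-PS1_UA arrays on slide 2. Between the untreated non-transgenic groups of these slides, WT_WASHOUT minus WT_CTR, 86.6% of members and 45.2% of all features were above 0, and the part of the slide in the 13 was not tested. Those 13 were Ndufa1, Ndufa2, Ndufa6, Ndufa12, Ndufa13, Ndufb3, Ndufb5, Ndufc1, Ndufs7, Ndufv3, Cox7c, Atp5a1 and Atp5mpl, 10 of them from complex I. That complex holds 37 of the 82 members tested. Where another probe was kept, it gave -0.01 for Ndufb5, 0.23 for Cox7c and -0.07 for Atp5a1. For 77 members the 95% interval excluded a change of 1.5-fold or more. The 5 others were Cox6a2, Cox6b2, Cox7a1, Cox7b2 and Cox8b, all isoforms with a restricted tissue range.

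Ndufa12, an accessory subunit of complex I, had the largest difference of its complex. It read 5.16, 5.34, 5.28 and 5.32 in APP-PS1_UA against 4.95, 4.97 and 5.02 in APP-PS1_CTR. WT_CTR read 5.15, 5.25, 5.05 and 5.21, so the untreated transgenic arrays lay below both other groups. The urolithin A difference was 0.29 (SE 0.09, limma adjusted p = 0.654) and the transgene difference -0.18, and both rest on the same 3 APP-PS1_CTR arrays. In the other complexes, Cox4i1, the common form of a regulatory cytochrome oxidase subunit, differed by 0.03 with a 95% interval from -0.14 to 0.21, Uqcrc2 by 0.01 and Atp5c1 by 0.08. The beta and alpha subunits of ATP synthase differed by more, Atp5b by -0.26 (SE 0.12, limma adjusted p = 0.674) and Atp5a1 by 0.18 (SE 0.08, 0.676). Their other kept probes gave 0.06 and -0.03 for Atp5b and -0.07 for Atp5a1. Atpif1, the inhibitor protein of ATP synthase and no member by the rule, differed by 0.19 (adjusted p = 0.692).

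**Figure D1:**
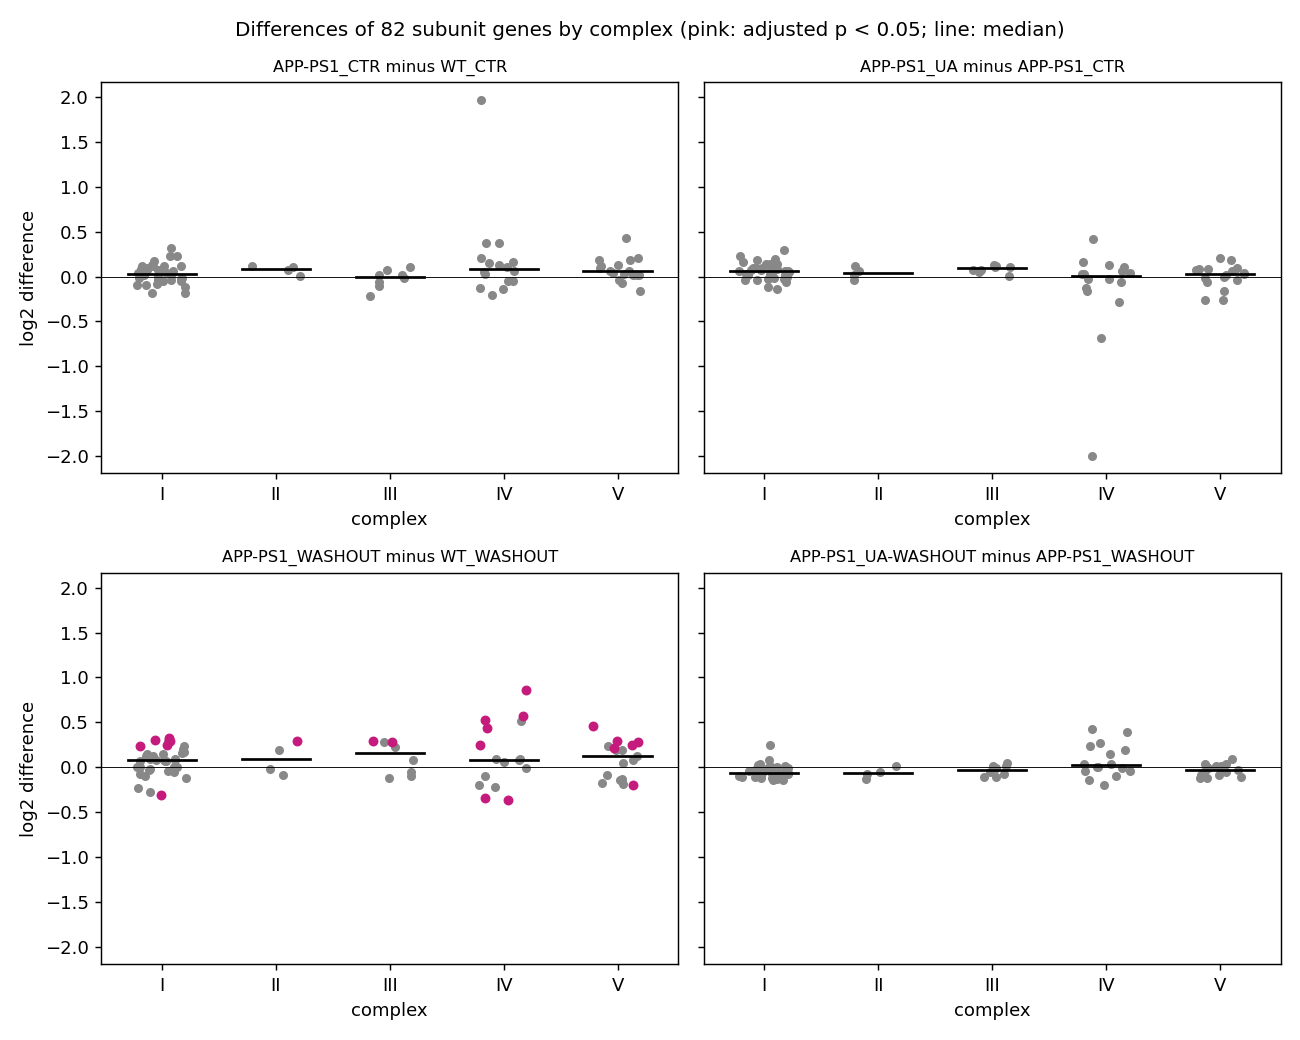
Log2 difference of each of the 82 tested subunit genes (points) in 4 comparisons, by complex, with the median of each complex as a line and genes with a limma adjusted p under 0.05 in pink. Pink points occur in 1 panel, APP-PS1_WASHOUT minus WT_WASHOUT (18 higher, 4 lower), and the single points near 2 and -2 are Cox8b.

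In the washout stage, APP-PS1_WASHOUT was compared with WT_WASHOUT. Here 22 members were called, 18 higher and 4 lower. They make up 26.8% of the 82, against 27.6% of all features. The higher members were 22% against 20% of all features, and the lower ones 4.88% against 7.67%. By complex, 5 of complex I rose and 1 fell, 1 of complex II rose, 2 of complex III rose, 5 of complex IV rose and 2 fell, and 5 of complex V rose and 1 fell. The median difference of the members was 0.08, as was that of all features. No slide held both groups, so the transgenes and the slide cannot be told apart. The count was 9 without APP-PS1_WASHOUT replicate 2, 13 without replicate 3 of that group, 14 without WT_WASHOUT replicate 2 and 13 with the array row as a block. The split turned with the scaling, to 6 higher and 13 lower with quantile normalization and to 2 higher and 14 lower with array median scaling. The share of all features called was not counted under these settings, so the changed counts are not a result about the subunits alone. Of 6 microglial markers 4 also rose (median 0.49), and of 8 neuronal markers 2 did (median -0.06), and their part in the result was not tested.

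Cox8a, the common form of the smallest cytochrome oxidase subunit, had the smallest adjusted p. It read 6.56, 6.43, 6.54, 6.49 and 6.53 in WT_WASHOUT and 7.07, 7.19 and 6.99 in APP-PS1_WASHOUT. The groups did not overlap, and the 5 APP-PS1_UA-WASHOUT arrays on the same slide read 7.05, 7.09, 7.12, 7.10 and 7.08. The difference was 0.57 (SE 0.12, 1.49-fold, limma adjusted p = 0.000881). With quantile normalization it was 0.06 (adjusted p = 0.662).

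Cox7c, another small subunit of complex IV, moved the other way. It read 4.33, 4.22, 4.20, 4.32 and 4.35 in WT_WASHOUT and 3.92, 3.79 and 4.04 in APP-PS1_WASHOUT, a difference of -0.37 (SE 0.08, limma adjusted p = 0.0012). Its 5 APP-PS1_UA-WASHOUT arrays lay between 3.86 and 4.08. Every array of slide 3 was thus below every other array.

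Of the 22 called members, 10 were called in the same direction with quantile normalization and 6 with array median scaling, and 0 of the 22 were called under all 12 alternatives that keep every array. Called members came from all 5 complexes, complex II by Sdhb alone. Atp5g3, a source of the membrane ring of ATP synthase, differed by 0.46 (limma adjusted p = 0.0012), and Atp5a1, its alpha subunit, by 0.29 (0.011). Sdhb, the iron-sulfur subunit of succinate dehydrogenase, differed by 0.29 (0.0034), and Uqcrq, a small subunit of complex III, by 0.29 (0.0045). Among complex I accessory subunits Ndufa13 differed by 0.25 (0.0081) and Ndufb9 by 0.33 (0.0084). Cox7a2, whose muscle counterpart is Cox7a1, differed by -0.34 (0.011), and the dim isoforms Cox4i2 and Cox7b2 by 0.52 (0.0075) and 0.86 (0.0076). Of the 8 genes shown with an NRF1 core, 3 were called, Sdhb, Ndufa8 at 0.29 (0.0396) and Cox6a1 at 0.25 (0.0421), and 5 were not, against 22 of all 82 members. Of the 6 core subunits of complex I described above, 0 were called.

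Each of these named calls was lost under at least 1 alternative. With quantile normalization Uqcrq differed by 0.09 (limma adjusted p = 0.377), Ndufb9 by 0.15 (0.246), Ndufa13 by -0.089 (0.412), Atp5a1 by -0.025 (0.867) and Cox6a1 by -0.19 (0.0284), which passed the test in the opposite direction. With array median scaling Sdhb differed by 0.08 (0.546), Atp5g3 by 0.25 (0.0616), Cox4i2 by 0.31 (0.0658) and Ndufa8 by 0.08 (0.681), and the calls of Uqcrq, Ndufb9, Ndufa13, Atp5a1 and Cox6a1 were lost as well. With the mean of a gene's probes in place of the brightest, Sdhb differed by 0.04 (0.777), Atp5a1 by 0.06 (0.668) and Cox7c by 0.17 (0.134). With the array row as a block the calls of Cox7a2 (-0.32, 0.0667), Cox4i2 (0.34, 0.145), Ndufa8 and Cox6a1 were lost, and that of Cox7b2 was lost only in the series matrix scores (0.107).

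**Figure D2:**
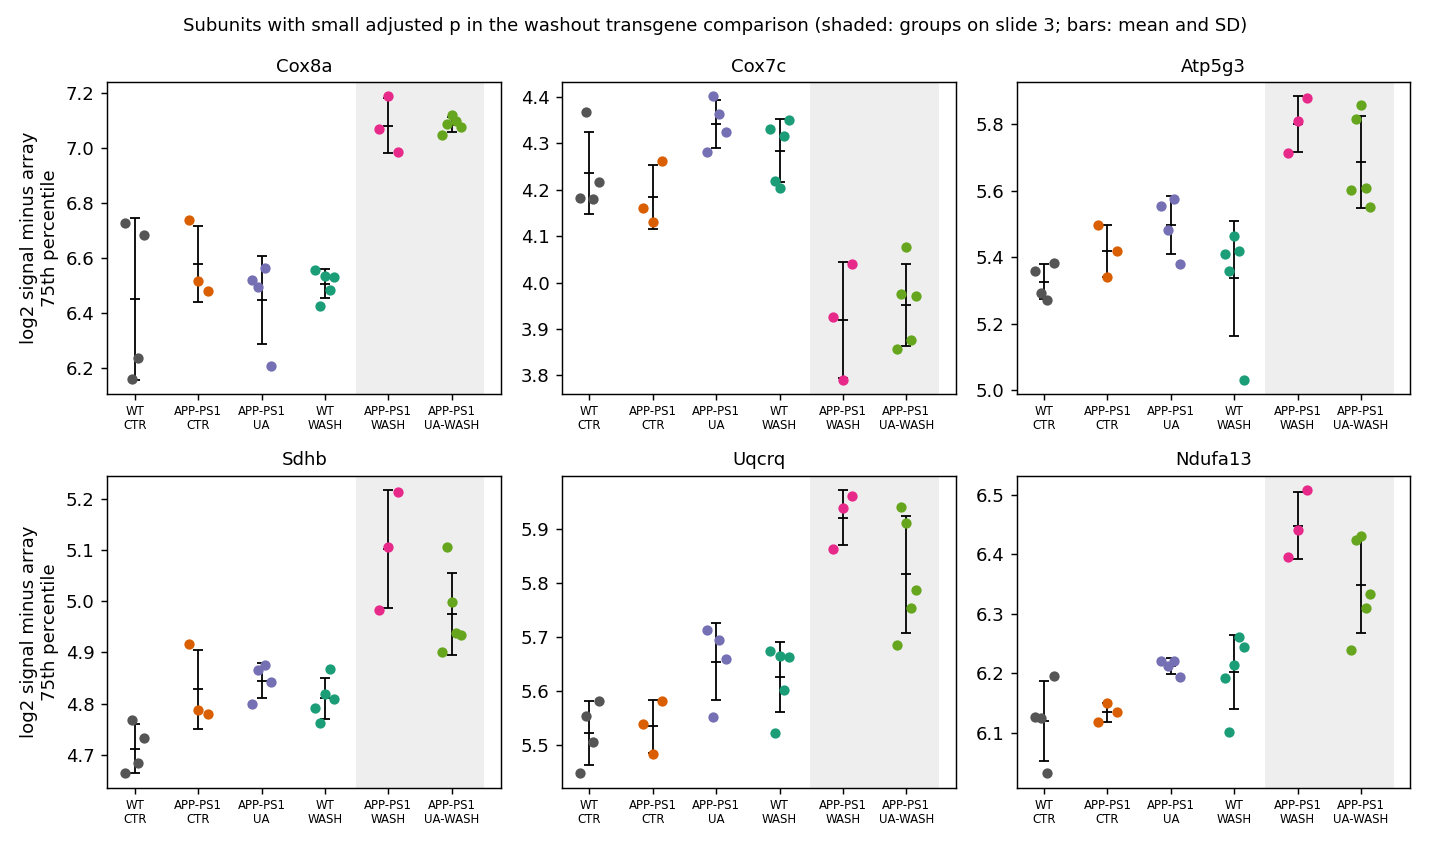
Log2 signal minus the array 75th percentile of 6 called subunit genes in every array (points), with the mean and SD of each group, and the groups of slide 3 shaded. Both transgenic washout groups sit together, for Cox8a between 6.99 and 7.19. For Cox8a and Cox7c they do not overlap the groups of the other slides, and for the other 4 genes the lowest slide 3 array reaches into them.

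Whether the transgene difference changed between the stages was tested as an interaction, in which the washout groups again lie on different slides. It was called for 2 members, or 2.44%, where 14.2% of all features were called. The median absolute difference of all 82 members was 0.16 between the washout groups and 0.08 between APP-PS1_CTR and WT_CTR, and that of all features was 0.30 and 0.15. Cox4i2 is the isoform of Cox4i1 known from lung and vascular mural cells. It read -1.53, -1.41 and -1.47 in APP-PS1_WASHOUT and -1.61, -2.11, -2.11, -1.97 and -2.17 in WT_WASHOUT, with an interaction of 0.65 (SE 0.20, limma adjusted p = 0.0331). Atp5j2, a small membrane subunit of ATP synthase, had an interaction of -0.32 (limma adjusted p = 0.0485). With the array row as a block the 2 values were 0.24 (0.768) and -0.37 (0.287), and neither was called. Neither was called with normexp background correction, quantile normalization, the replicate block or the series matrix scores either. With 1 array left out the interaction called 0 to 4 members, and it called 0 without any 1 of WT_CTR replicates 1 and 4, APP-PS1_CTR replicate 1, WT_WASHOUT replicates 2 and 5, or APP-PS1_WASHOUT replicates 1 and 2.

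Of all members, 5 had all 8 arrays of slide 3 on one side of the 16 others, which is 6.1% against 12.1% of all features. The 4 above were Ndufb9, Cox6c, Cox8a and Atp5j, where 10.4% of all features lay above, and Cox7c was below, where 1.72% did.

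Genes with more than 1 kept probe allow a gene to be read by separate probes. In the washout transgene comparison the probes of the 17 such genes differed by a median of 0.24, and in 8 genes by more than 0.3. In the comparison of the transgenic washout groups, both on slide 3, the median was 0.04 and the highest 0.11. Of the 22 called members 6 had another kept probe, and in 4 of them, Cox7c, Sdhb, Atp5a1 and Atp5g1, it had the opposite sign.

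The other probe of Cox7c was higher where the used one was lower. It read 2.01, 2.07, 2.01, 1.87 and 1.87 in WT_WASHOUT and 2.53, 2.63 and 2.88 in APP-PS1_WASHOUT, a difference of 0.71 against -0.37. For Atp5h, a stalk subunit of ATP synthase, the used probe gave -0.13 and the farthest of the other 2 gave 1.03. The sequences of the probes were not used here, and which transcript forms each reads was not tested.

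**Figure D3:**
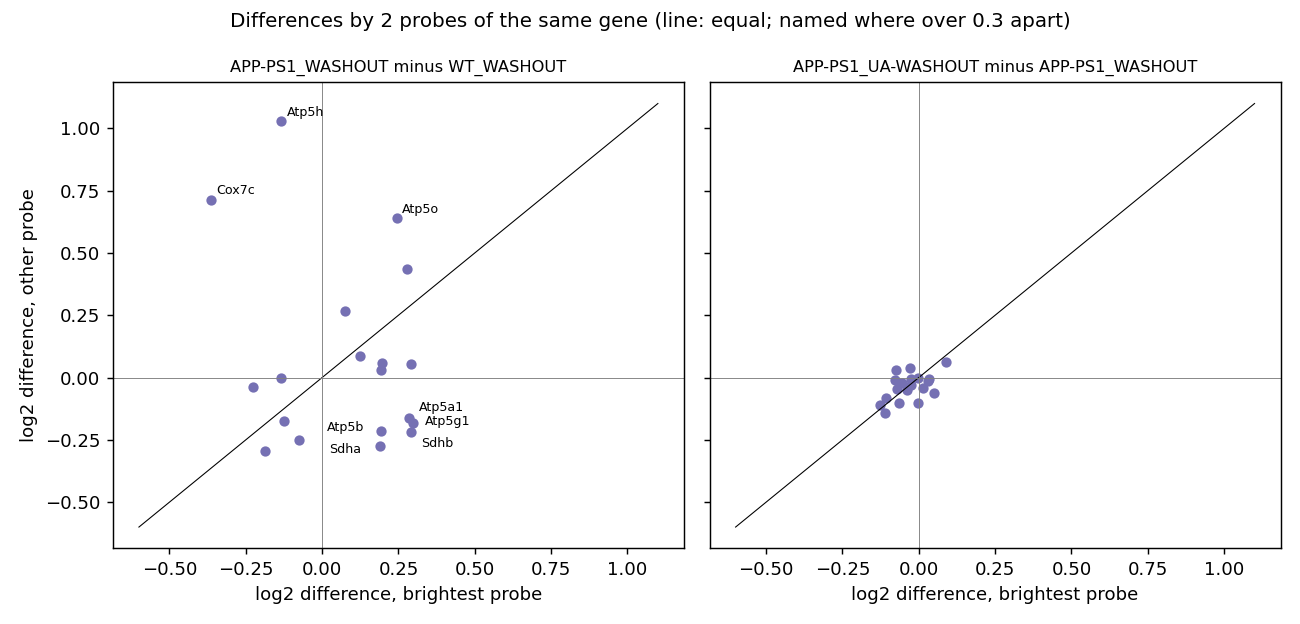
Log2 difference by the brightest probe (x axis) and by each other kept probe (y axis) of the 17 subunit genes with more than 1, in the washout transgene comparison across slides (left) and between the transgenic washout groups on slide 3 (right). Points scatter up to 1.16 apart on the left (Atp5h) and lie within 0.11 on the right.

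APP-PS1_UA-WASHOUT was compared with APP-PS1_WASHOUT to ask what remains of the treatment after a month without it, and these groups shared slide 3. They were not spread evenly over its rows. All APP-PS1_WASHOUT arrays lay on row 1 with APP-PS1_UA-WASHOUT replicate 1, and the remaining treated arrays filled row 2. On row 2, 63.7% to 69.9% of spots were well above background, against 73.8% to 76.9% on row 1. On this slide treatment and row can thus hardly be told apart. Of the 82 members 0 were called, where 0.0624% of all features were, and 1 had an unadjusted p under 0.05 in the limma fit, or 1.22% against 7.45% of all features. The median difference was -0.04, and 77 members had a 95% interval within a 1.5-fold change. In 2 members, Ndufa4l2 and Cox4i2, all treated arrays were higher, and in 2, Ndufb10 and Atp5l, all were lower, or 2.44% each way against 2.57% and 2.77% of all features. Cox4i2 read -1.14, -1.29, -1.20, -1.26 and -1.13 in APP-PS1_UA-WASHOUT, a difference of 0.27 (SE 0.14, limma adjusted p = 0.71). The flagged APP-PS1_WASHOUT spot of Ndufb10 was left out, so its non-overlap rests on 2 arrays of that group, at 5.56 and 5.61. With flagged spots kept, the difference of Ndufb10 between APP-PS1_WASHOUT and WT_WASHOUT was 0.10 in place of 0.24. The left-out spot was thus the lower one, and the non-overlap depends on leaving it out. The test of whether the urolithin A difference changed between the stages called 0 members, where 0.00851% of all features were called. By the same limma fit 7 members had an unadjusted p under 0.05 there, or 8.54% against 9.78% of all features.

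WT_WASHOUT and WT_CTR differ by stage and also by slide. Only the APP-PS1_UA arrays link those slides, so stage and slide can be separated only through that group. Of the 82 members 0 were called, where 0.017% of all features were, and 8 had an unadjusted p under 0.05 in the limma fit, or 9.76% against 8.18% of all features. The difference was above 0 in 86.6% of members and in 45.2% of all features, with a member median of 0.09.

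Cox8b, known from heart and skeletal muscle, had the largest difference of all members at the end of treatment. It read 1.67, -2.80, -0.47 and -2.11 in WT_CTR, 0.12, 1.19 and 1.81 in APP-PS1_CTR, and 2.45, -1.13, -2.06 and -3.09 in APP-PS1_UA. The groups overlapped. The differences were 1.96 (SE 1.36, limma adjusted p = 0.82) and -1.996 (SE 1.36, 0.74), and they share the APP-PS1_CTR arrays.

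Markers of the choroid plexus, the epithelium that secretes cerebrospinal fluid and lies beside the hippocampus, moved with it. The mean deviation of 8 markers ran from -2.36 to 2.46 in WT_CTR, from 0.59 to 2.23 in APP-PS1_CTR, from -2.87 to 2.86 in APP-PS1_UA, from -3.09 to 2.66 in WT_WASHOUT, from -1.51 to 2.20 in APP-PS1_WASHOUT and from -2.29 to 1.95 in APP-PS1_UA-WASHOUT. All 8 had a positive difference between APP-PS1_CTR and WT_CTR, with a median of 1.80, and 0 of 8 were called.

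Over the 24 arrays Cox8b correlated with the marker score at r = 0.983 (rho = 0.976, permutation p = 1e-05 for each). That p is the smallest that 100000 resamples can give, and adjusted over the 6 relations computed it is 1.2e-05. The resamples shuffled all 24 arrays without regard to group or slide, so these p also take in shifts between groups and slides. Without the 2 arrays farthest from the median score r was 0.979, and within slides 1, 2 and 3 it was 0.989, 0.982 and 0.988. Cox6b2, known from testis, had r = 0.879 (rho = 0.880, permutation p = 1e-05 for each), 0.903 without the 2 farthest arrays and 0.876, 0.822 and 0.983 within slides. Cox7a1, a muscle form, had r = 0.850 (rho = 0.846, permutation p = 1e-05 for each), 0.874 without the 2 farthest arrays and 0.949, 0.773 and 0.920 within slides. These relations were picked after the values had been seen, and whether the isoform signal comes from choroid tissue in the dissection was not tested.

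**Figure D4:**
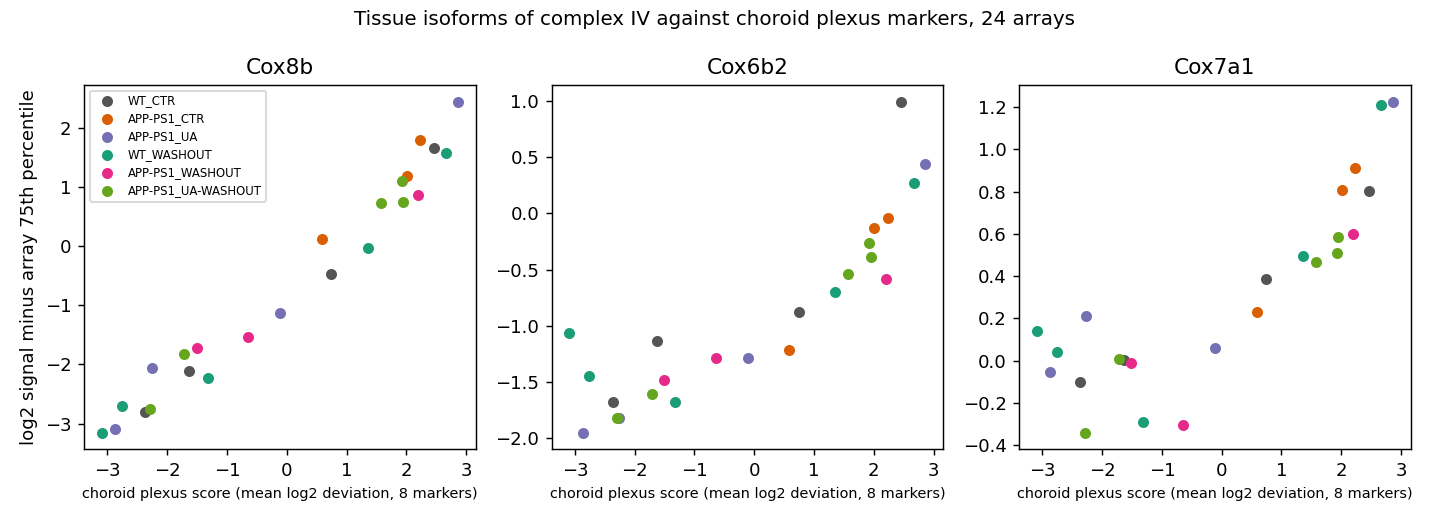
Log2 signal minus the array 75th percentile of Cox8b, Cox6b2 and Cox7a1 against the mean log2 deviation of 8 choroid plexus markers, 1 point per array, coloured by group. Cox8b climbs over the whole range, from -3.16 to 2.45, while Cox6b2 and Cox7a1 lie flat at scores below 0 and climb above it.

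The promoter of Cox8b is shown with that of its common counterpart Cox8a, since Cox8b had the highest pooled SD of all members. Both are 120 bases that end at the last base before the start.
Cox8a: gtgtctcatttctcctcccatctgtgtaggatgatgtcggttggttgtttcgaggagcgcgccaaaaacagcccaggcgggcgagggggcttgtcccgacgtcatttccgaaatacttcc
Cox8b: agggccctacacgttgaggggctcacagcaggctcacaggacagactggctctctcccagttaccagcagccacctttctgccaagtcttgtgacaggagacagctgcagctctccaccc
They lie at chr19:7217617-7217736 and chr7:140900447-140900566, both on the minus strand of GRCm38.p6. Neither stretch holds a full match to the 3 motifs, and the ETS motif of Cox8a spans its start.

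Other restricted forms had lower correlations with their marker scores over the 24 arrays, and that of Cox4i2 did not hold within slide 1. Their permutation p again take in shifts between groups and slides, since the shuffling ignored both. Cox6a2, a muscle form of a cytochrome oxidase subunit, ran from 0.36 to 1.66. It was set against a score of 7 interneuron markers, Pvalb, Gad1, Gad2, Slc32a1, Kcnc1, Kcnc2 and Erbb4. The correlation was r = 0.619 (rho = 0.591, permutation p = 0.00149 and 0.00269, adjusted 0.00149 for r). It was 0.606 without the 2 farthest arrays and 0.760, 0.426 and 0.517 within slides. After group means were removed, the genes most like Cox6a2 over 24 arrays were Ank1 (r = 0.95), Cplx3 (0.94) and Efnb2 (0.93). Ndufa4l2, a paralog of Ndufa4, had r = 0.786 with 11 pericyte and mural markers (rho = 0.650, permutation p = 1e-05 and 0.00102, adjusted 1.2e-05 for r), 0.725 without the 2 farthest arrays and 0.513, 0.918 and 0.762 within slides. The genes most like it were 9330102E08Rik (r = 0.84), Sms (0.84) and Eefsec (0.83). Cox4i2 had r = 0.769 with the mural markers (rho = 0.703, permutation p = 1e-05 and 0.00027, adjusted 1.2e-05 for r), 0.689 without the 2 farthest arrays and 0.774 and 0.811 within slides 2 and 3. Within slide 1 it was -0.028, so the relation did not hold there. After group means were removed r was 0.316, against 0.650 for Ndufa4l2, 0.659 for Cox6a2 and 0.985 for Cox8b. Single mural markers ran from r = -0.60 (Abcc9) to 0.73 (Cspg4) with Cox4i2 and from -0.06 (Abcc9) to 0.69 (Higd1b) with Ndufa4l2. Single interneuron markers ran from 0.17 (Gad2) to 0.81 (Kcnc2) with Cox6a2, and among them Erbb4 was well above background on only 13 arrays. The genes most like Cox4i2 were Gm13580 (r = 0.95), Dicer1 (0.92) and 4930524O05Rik (0.92).

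Genes that build or feed the chain were counted beside the subunits in the washout transgene comparison. Of 15 complex I assembly factors 2 rose and 2 fell (median -0.03), and of 32 assembly factors of the other complexes 3 rose and 1 fell (-0.06). Of 13 citrate cycle enzymes 0 rose and 2 fell (-0.10), and of 11 regulators of mitochondrial transcription and copy number 0 rose and 2 fell (-0.14). Of 28 cytosolic ribosomal proteins 11 rose and 1 fell (0.19). Of all features 20% rose and 7.67% fell, with a median of 0.08. These lists were not recounted under other scalings, which turned the split of the subunits. In both urolithin A comparisons 0 genes of these lists were called.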

How the data were processed

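RNA was labelled with Cy3 and hybridised to Agilent arrays. Per the file headers the authors extracted the deposited spot intensity values with Feature Extraction 12.0.3.1 (design build mm9); the processed signal is background-subtracted, with no scaling across arrays. The authors also deposited a score per spot, which lay within 0.005 of each array's standardized log signal; its column medians ran from -0.17 to -0.06, and its log base cannot be told. Here log2 of the processed signal minus each array's 75th percentile was fitted in R 4.3.3 with limma 3.58.1, as 6 group means over all 24 arrays and 7 contrasts. Flagged spots were left out (3 member values), and probes had to be well above background on at least 3 arrays. The test was checked on simulated data; a first limit on its bias, a set share of the true change, was missed at the smallest change and was then replaced by a limit relative to the simulation's own error. Members, lists and relations were chosen with earlier results of these data known. Genes named are the called members (the 10 smallest adjusted p where over 20 were called), the largest difference per complex, core subunits and tissue isoforms; members singled out for non-overlap or discordant probes, and the likenesses of isoforms to marker scores, were chosen after their values were seen. Alternatives were background, scaling, filter, probe choice, slide, row and replicate blocks, array weights and leaving out each array. Replicate numbers did not pair the samples. The number of arrays limits the precision. 1 item is not reported here.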

Additional observations from a re-analysis of the deposited data

Results flagged for a closer look

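In 172 groups of 4 or 5 values, 5 held an array far from the rest, where chance gives about 1 in 20. Ndufa4l2 read -1.20 in APP-PS1_UA-WASHOUT replicate 4, with the nearest array at -1.003. Sdha read 3.55 in WT_WASHOUT replicate 5, with the nearest at 3.74. Uqcrfs1, the Rieske iron-sulfur protein of complex III, read 3.24 in APP-PS1_UA replicate 4, with the nearest at 3.87. Atp5g3 read 5.03 in WT_WASHOUT replicate 5, with the nearest at 5.36. The median of complex III was 5.23 in APP-PS1_UA-WASHOUT replicate 3, with the nearest at 5.03. The interaction of transgene and stage passed the test for Cox4i2 at 0.65 (limma adjusted p = 0.0331) and for Atp5j2 at -0.32 (limma adjusted p = 0.0485). With the array row as a block the values were 0.24 (limma adjusted p = 0.768) and -0.37 (limma adjusted p = 0.287), and both calls were also lost with normexp, quantile normalization, the replicate block and the series matrix scores. The washout groups lie on different slides, so transgene and slide cannot be told apart there.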

How the results depend on the processing

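Counts of 0 called members held under every alternative run for both urolithin A contrasts, the first transgene contrast, the non-transgenic contrast and the urolithin A interaction. For APP-PS1_WASHOUT minus WT_WASHOUT the count was 13 with the array row as a block and 9 to 20 when 1 array was left out: 9 without APP-PS1_WASHOUT replicate 2, 13 without replicate 3 and 14 without WT_WASHOUT replicate 2. The transgene interaction called 0 with normexp (run on median signals), the row block or the replicate block, 1 with quantile normalization, no dim filter or the mean of all probes, 4 with the series matrix scores, 9 with array median scaling or array weights, and 0 to 4 with 1 array left out. The replicate number as a block gave 15 washout calls. Shares of all features called were not counted under these alternatives. Sample numbers did not pair: correlations of same-numbered deviations ran from -0.238 to 0.237 over 5 contrasts, and in 0 of the 5 was every pair over 0.1. WT_WASHOUT minus WT_CTR came nearest, with 3 of 4 pairs over 0.1. Member medians under quantile normalization were -0.032 for APP-PS1_CTR minus WT_CTR and -0.0026 for the washout transgene contrast. With array median scaling they were -0.13 in that contrast, -0.13 for the washout urolithin A contrast, 0.17 for WT_WASHOUT minus WT_CTR, -0.19 for the transgene interaction and -0.22 for the urolithin A interaction. With 1 array left out the medians ran from 0.02 to 0.05, 0.03 to 0.08, 0.06 to 0.13, -0.09 to -0.0065, 0.06 to 0.11, 0.02 to 0.11 and -0.12 to -0.06, in the order of the first 4 contrasts, the non-transgenic one and the interactions. Called values changed sign for 4 of the 22, Ndufa13 (-0.089), Atp5a1 (-0.025) and Cox6a1 (-0.19) under quantile normalization, and Cox7c with the mean of its probes (0.17); the cause was not tested. A fixed slide block could not be fitted for the washout transgene contrast or its interaction.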
